A study of Rattus norvegicus with 5 samples.

Results

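The genes of autophagy, of the proton pump of the lysosome and of endosomal sorting were examined in cultured tendon stem/progenitor cells (TSPCs) of the rat, harvested at passage 12. Members were the probe sets (groups of array probes that report 1 transcript cluster each) whose annotated symbol starts with Atg, Ulk, Wipi, Map1lc3, Gabarap, Atp6v, Atp6ap, Lamp and a digit, Vps, Chmp or Snx, or is Sqstm1, Becn1, Rb1cc1, Uvrag, Nbr1, Optn or Stx17; of the further symbols in the rule, Pik3c3, Pik3r4, Ambra1, Vmp1 and Epg5 had no named probe set and were not analysed here. This gave 87 probe sets for 87 genes, out of 10141 probe sets in all and 7240 with a gene symbol. The rule reads names only, although it was drawn up with earlier results of these data known. Atg5 and Atg7 also had no named probe set.

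TSPCs are the resident cells of tendon that give rise to tendon fibroblasts. They were isolated from the Achilles tendons of young rats, selected as colonies and passaged serially, a culture model of replicative ageing. In the POG group, 20 μmol/L prim-O-glucosylcimifugin (POG), a chromone of Saposhnikovia root, was in the medium of each passage between passages 3 and 12. The DMSO group went through the same passages with an equal amount of the solvent, dimethyl sulfoxide. RNA was hybridised to Affymetrix arrays, with 3 DMSO arrays and 2 POG arrays, and the values are log2 signals from robust multi-array average (RMA). Arrays of a group are labelled as biological replicates, with no statement of whether each is a culture or an animal of its own, and each p-value therefore reflects just the scatter among these 5 arrays, which may be technical. These are bulk samples, in which fewer cells of a type and less RNA per cell cannot be told apart.

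Autophagy encloses cytoplasm in a membrane sac and delivers it to the lysosome. The ULK1 kinase complex starts the process, the class III PI3-kinase with Beclin 1 marks the forming membrane, and a pair of conjugation systems attach ATG8 proteins (the LC3 and GABARAP families) to its lipids, to which cargo receptors such as p62 bind. The lysosome is acidified by the vacuolar ATPase (V-ATPase), a rotary proton pump with a cytosolic V1 part that splits ATP and a membrane-embedded V0 part that carries protons. Endosomes sort their cargo through ESCRT complexes, which bud vesicles inward for degradation, and through retromer and sorting nexins, which return receptors to the surface or to the Golgi.

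Members moved in both directions. At an adjusted p under 0.05, 14 of the 87 were higher and 14 were lower in POG-treated cells, or 32.2% of members against 46.3% of all probe sets (16.1% against 26.7% higher, 16.1% against 19.6% lower; limma, Benjamini-Hochberg over all 10141 probe sets). The median difference, POG minus DMSO, was 0.02 on the log2 scale for members and 0.11 for all probe sets. The median size of the difference was 0.40 for members and 0.49 for all probe sets. At least 2-fold changes past the threshold were seen for 7 members (8.05%), against 18.8% of all probe sets. The arrays of the groups did not overlap for 52 of 87 members (59.8%, against 66.8%). By an unadjusted p under 0.05 with a fold over 1.5, the thresholds of the study, 11 members were higher (12.6%, against 24.1%) and 13 lower (14.9%, against 17.6%). Of the calls, Atg4c, Vps36, Snx3, Snx4 and Atp6v0a1 fell short of that fold (1.426 to 1.497), while Snx29 was gained (limma unadjusted p = 0.0447, fold of 1.56). Members had brighter signals than the whole table, with a median of 10.69 against 8.45, and among probe sets at or above the median signal the call was made for 31.9% of members and 50.3% of all. The split of calls depended on scaling: 10 higher and 20 lower when every array was centred on its own median, 12 and 16 when the arrays were quantile normalized. Leaving out POG replicate 2 left 4 higher and 11 lower, leaving out POG replicate 1 left 8 and 7, and without DMSO replicate 2 there were 8 and 11. Trended and robust eBayes called 14 higher and 21 lower. The methods' t-test, Benjamini-Hochberg adjusted, called 6 higher and 10 lower.

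**Figure D1:**
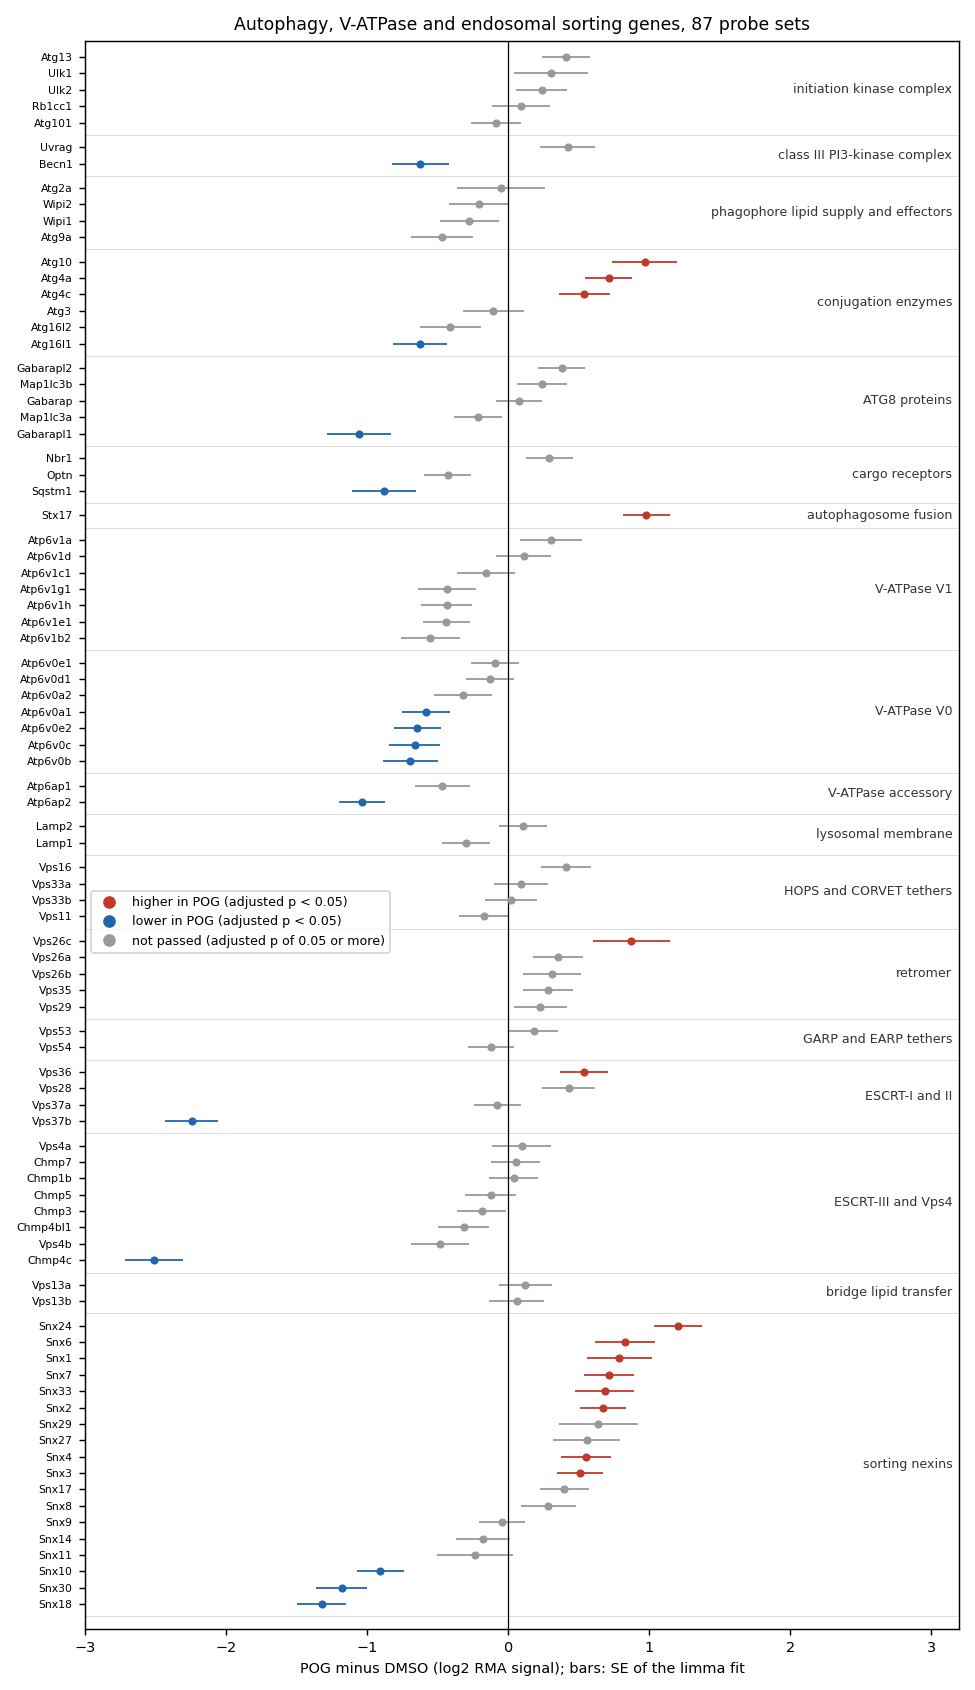
Difference between POG-treated and DMSO-treated cells for the 87 members (x axis, log2 RMA signal; y axis, genes by functional group); points are the fitted differences and bars their SE, with 14 genes higher (red), 14 lower (blue) and 59 not past the threshold (grey). The V0 genes all lie left of 0, the retromer and retriever genes all lie right of 0, and Chmp4c and Vps37b stand farthest from 0.

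Other cell types were checked by lists of markers. Of the mesenchymal surface markers 5 of 5 were measured, with a mean log2 signal of 13.6 to 14.1 over the arrays and with Cd44 and Itgb1 lower in POG-treated cells. The others did not pass: Eng was at -0.41, Thy1 at 0.06 and Nt5e at 0.85 (limma adjusted p = 0.0526). The DMSO mean of Nt5e was 5.84, under the lower quartile of all signals (6.17). Of 11 tendon genes 8 were measured, among them Col1a1 at 19.18 to 19.47 and the tendon transcription factor Scx at 5.55 to 6.11, under the lower quartile of all signals (6.17), where background cannot be separated from signal. Dcn, Fmod and Thbs4 were higher. The other measured tendon genes did not pass: Egr1 was at 0.45, and Col3a1 (-0.39), Tnc (-0.35), Scx (-0.31) and Col1a1 (-0.14) were negative. Tnmd and Mkx were not analysed here. All 5 measured leukocyte and macrophage markers of 12 listed were higher in POG-treated cells, with a mean signal of 5 to 5.43 in DMSO and 6.59 to 7.05 in POG arrays. The list's mean on each DMSO array lay under that quartile, as did the DMSO means of Cd53, Lyz2, Cd68 and Fcer1g. Fcer1g lay under it in both groups (3.55 and 4.77). Cd14 lay above it in both (8.15 in DMSO and 9.24 in POG). Ptprc, Csf1r and Itgam were not analysed here. All 8 measured smooth muscle and pericyte markers of 9 were lower, with a mean of 14.6 on each DMSO array and 10.2 to 10.4 in POG. Of 6 endothelial markers only Kdr was measured, higher by 1.85 (adjusted p = 2.35e-05) from a DMSO mean of 4.47 that also lay under the quartile. Their part in the results below was not tested.

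The kinase that starts autophagy showed no change past the threshold. Of 5 measured members, 0 passed (limma adjusted p of 0.0702 to 0.734, and 1 with an unadjusted p under 0.05). Atg13, the scaffold of the kinase complex, had signals of 10.75, 10.97 and 10.97 in DMSO and 11.30 and 11.32 in POG, a difference of 0.41 ± 0.17 (SE, adjusted p = 0.0702), with the groups apart. It passed as higher by trended and robust eBayes (adjusted p = 0.0444) and among brighter probe sets only (0.036). Ulk1, the kinase itself, was at 0.31 ± 0.26 and Ulk2 at 0.24 ± 0.18, with overlapping arrays. Becn1, which encodes Beclin 1, fell. Its signals were 11.42, 11.81 and 11.95 in DMSO and 11.02 and 11.19 in POG, a difference of -0.62 ± 0.20 (adjusted p = 0.0289), and the arrays of the groups did not overlap. Of the arrays left out in turn, only DMSO replicate 1 left this call in place, and the adjusted p was 0.155 without POG replicate 1, 0.0808 without POG replicate 2, 0.0801 without DMSO replicate 2 and 0.0814 without DMSO replicate 3. Uvrag, a partner of Beclin 1 in another form of the complex, was at 0.42 ± 0.20 (adjusted p = 0.104). The 4 genes of membrane supply and early effectors were all negative and 0 passed (limma, 0 at an unadjusted p under 0.05), with Atg9a, the scramblase of the seed vesicles, at -0.47 ± 0.22 (adjusted p = 0.101), Wipi1 at -0.28 and Wipi2 at -0.21, both binders of the PI3-kinase lipid. Atg9a had an adjusted p of 0.0306 without DMSO replicate 3.

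Enzymes of the conjugation systems changed in both directions, with 3 of 6 higher and 1 lower. Among all probe sets 26.7% were higher and 19.6% lower, and the group as such was not tested. Atg4a, a protease that trims ATG8 proteins and recycles them from membrane, was at 11.25, 11.17 and 11.11 in DMSO and 11.81 and 11.97 in POG, a rise of 0.71 ± 0.17 (adjusted p = 0.00689). Its relative Atg4c rose by 0.54 ± 0.18 (adjusted p = 0.0323), and this call was lost after centring (0.45, adjusted p = 0.0577), after quantile normalization (0.39, adjusted p = 0.0998), and when DMSO replicate 1, 2 or 3 or POG replicate 2 was left out (adjusted p = 0.0583, 0.0544, 0.072 and 0.224). Atg10, the E2-like enzyme that couples ATG12 to ATG5, rose by 0.97 ± 0.23 (adjusted p = 0.00718), from 6.90, 6.84 and 6.35 to 7.92 and 7.41. Atg16l1, which places the ATG12-ATG5 conjugate on the membrane, fell by 0.62 ± 0.19 (adjusted p = 0.0235), from 10.72, 11.12 and 11.10 to 10.25 and 10.46. The arrays of the groups were apart for these 4 genes. Without POG replicate 2 Atg4a had an adjusted p of 0.0597, and without POG replicate 1 Atg10 was at 0.0828. For Atg16l1 the adjusted p was 0.143 and 0.0609 without POG replicate 1 and 2, and 0.0742 and 0.0617 without DMSO replicate 2 and 3. Atg16l2, at -0.41 ± 0.22, had means under the lower quartile of 6.17, and Atg3, the E2-like enzyme for the ATG8 proteins, was at -0.11 ± 0.22.

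Among the 5 ATG8 genes, 1 fell, against 19.6% of all probe sets. Gabarapl1 was at 11.36, 11.38 and 12.03 in DMSO and 10.58 and 10.48 in POG, a difference of -1.06 ± 0.23 on the log2 scale, or 2.08-fold lower (adjusted p = 0.00424), with both POG arrays below all DMSO arrays. The call was kept when any array was left out (adjusted p of 0.00337 to 0.0429), and was lost by the methods' t-test (adjusted p = 0.0949). Map1lc3b, which encodes LC3B, the usual marker of autophagosomes, was at 14.98, 15.22 and 15.31 in DMSO and 15.36 and 15.46 in POG. The difference of 0.24 ± 0.18 did not pass (adjusted p = 0.287), and its 95% interval ran from -0.16 to 0.64. Map1lc3a was at -0.21 ± 0.17 (adjusted p = 0.323), Gabarapl2 at 0.38 ± 0.17 (adjusted p = 0.087, and 0.0467 among brighter probe sets only) and Gabarap at 0.08 ± 0.16. These values are of RNA, and the lipid-bound form of LC3 that is followed on protein blots is not measured by an array.

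Sqstm1, which encodes the cargo receptor p62, fell. Its signals were 14.36, 14.57 and 15.06 in DMSO and 13.63 and 13.93 in POG, so that POG lay below DMSO throughout. The difference was -0.88 ± 0.23, or 1.84-fold lower (adjusted p = 0.0108, 0.0953 without POG replicate 1 and 0.127 by the methods' t-test). The other receptors did not pass: Optn, optineurin, was at -0.43 ± 0.17 (adjusted p = 0.0566, and 0.0296 after centring), with 9.49, 9.59 and 9.43 against 9.10 and 9.05, and Nbr1 was at 0.29 ± 0.17. Stx17, the SNARE that fuses autophagosomes with lysosomes, rose by 0.98 ± 0.17 (adjusted p = 0.00116), from 5.72, 5.77 and 5.88 to 6.80 and 6.74. Its DMSO signals lay under the lower quartile of 6.17, so that the size of the rise is uncertain and no fold is given. Stx17 kept its call under each alternative that included it.

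**Figure D2:**
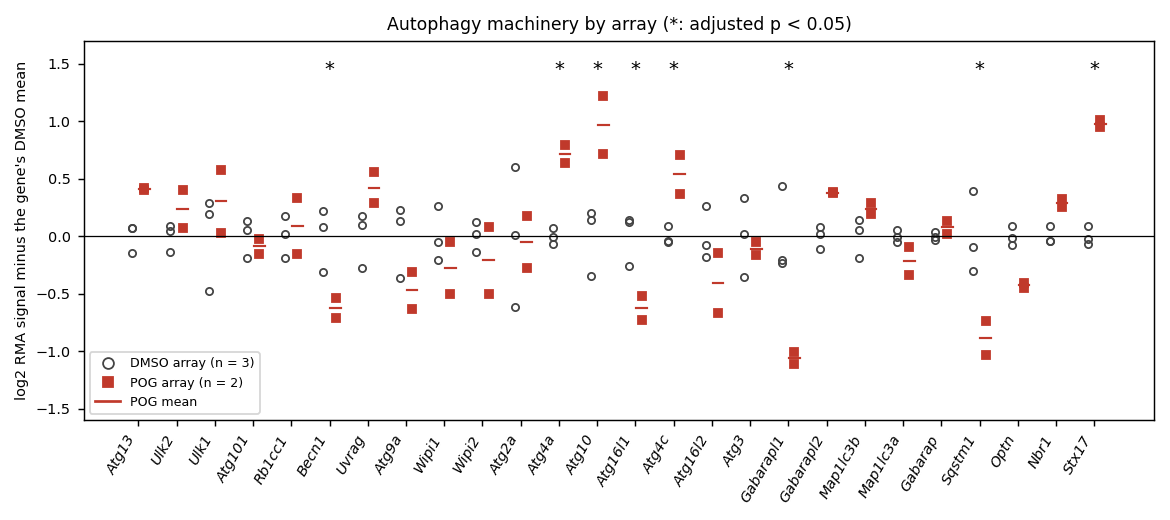
Signal of the 26 genes of the autophagy machinery on each array, as the log2 RMA signal minus the gene's DMSO mean (y axis); open circles are the 3 DMSO arrays, red squares the 2 POG arrays, red lines the POG mean, and asterisks mark genes past the threshold. Both POG arrays lie above all DMSO arrays for Atg4a, Atg10, Atg4c and Stx17 and below them for Becn1, Atg16l1, Gabarapl1 and Sqstm1.

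Of 16 measured V-ATPase genes, 5 fell and 0 rose, against 19.6% lower and 26.7% higher among all probe sets. The differences were negative for 14 of the 16 and for 4436 of all 10141 probe sets, and the medians were -0.44 and 0.11. These counts describe the genes, and the group as such was not tested. The number that fell was 9 after centring and 6 after quantile normalization. In the membrane part V0, 4 of 7 were lower as deposited and after either scaling, and all 7 differences were negative under each of the 3 scalings. Atp6v0c, the proteolipid of the proton-carrying ring, was at 13.52, 13.81 and 13.84 in DMSO and 13.11 and 13.01 in POG, a difference of -0.66 ± 0.18 (adjusted p = 0.0132). Atp6v0b, the second type of ring subunit, fell by 0.69 ± 0.19 (adjusted p = 0.0159), from 12.36, 12.40 and 11.97 to 11.44 and 11.66. Atp6v0a1, an isoform of the large subunit through which protons enter and leave the ring, fell by 0.58 ± 0.17 (adjusted p = 0.0183), from 14.11, 14.20 and 14.28 to 13.69 and 13.54. For all 3 genes the POG arrays lay below the DMSO arrays. Atp6v0e2 fell by 0.64 ± 0.17 (adjusted p = 0.0117), from a mean of 6.85 ± 0.11 (SD, n = 3) to 6.21 ± 0.06 (SD, n = 2), close to the lower quartile. The other isoforms were nearer 0: Atp6v0a2 was at -0.32 ± 0.20 and Atp6v0e1 at -0.09 ± 0.17. Atp6v0d1, which joins V0 to the central stalk, was at -0.13 ± 0.17.

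The largest difference of the pump genes was in an accessory protein. Atp6ap2, also known as the prorenin receptor and needed for V-ATPase assembly, was at 14.06, 14.12 and 14.13 in DMSO and 13.02 and 13.11 in POG. It fell by 1.04 ± 0.16 or 2.05-fold (adjusted p = 0.000748), with the groups well apart, and kept its call under each alternative run. Atp6ap1 was at -0.47 ± 0.19 (adjusted p = 0.0716, and 0.032 after centring). In the V1 part 0 of 7 passed (limma, with 3 at an unadjusted p under 0.05), while 3 passed as lower after centring and 1, Atp6v1b2, after quantile normalization. The 3 after centring, which with Atp6ap1 also passed by trended and robust eBayes, were Atp6v1b2, the B subunit of the catalytic head, at -0.55 ± 0.21 (adjusted p = 0.0522, and 0.0276 after centring), the stalk subunit Atp6v1e1 at -0.44 ± 0.17 (adjusted p = 0.0524, and 0.0251), and Atp6v1h, a regulator of ATP hydrolysis, at -0.44 ± 0.18 (adjusted p = 0.0719, and 0.0315). Atp6v1a, the catalytic A subunit, was at 0.31 ± 0.22 and Atp6v1d at 0.11 ± 0.20. Whether V0 differs from V1 was not tested. Each V0 call was lost without POG replicate 1 (adjusted p of 0.0512 for Atp6v0c, 0.113 for Atp6v0b, 0.0513 for Atp6v0a1 and 0.0703 for Atp6v0e2). Without POG replicate 2 the adjusted p was 0.0853 for Atp6v0c, 0.114 for Atp6v0a1 and 0.0514 for Atp6v0e2, and without DMSO replicate 2 it was 0.0552 for Atp6v0b; Atp6v1b2 was at -0.86 without POG replicate 2 (adjusted p = 0.0219) and at -0.24 without POG replicate 1 (adjusted p = 0.413), and without DMSO replicate 1 Atp6v1h (0.0349) and Atp6ap1 (0.037) passed.

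**Figure D3:**
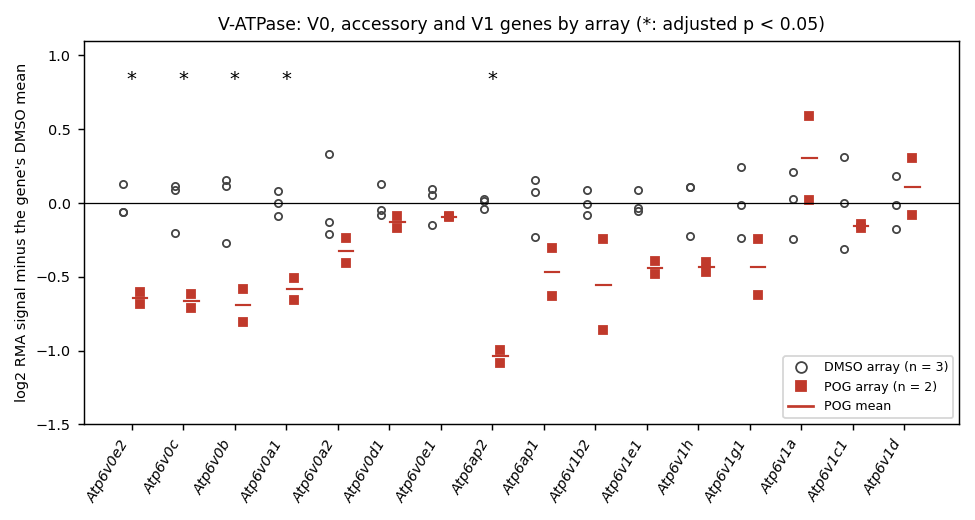
Signal of the 16 V-ATPase genes on each array, as the log2 RMA signal minus the gene's DMSO mean (y axis), with V0 genes first, then accessory and V1 genes; open circles are the 3 DMSO arrays, red squares the 2 POG arrays, red lines the POG mean, and asterisks mark genes past the threshold. The 5 genes with asterisks have both POG arrays below all DMSO arrays, and the POG mean lies above 0 only for Atp6v1a and Atp6v1d.

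The lysosomal membrane proteins, which coat the inner face of the organelle, did not pass. Lamp1 was at 17.80, 17.77 and 17.57 in DMSO and 17.38 and 17.45 in POG, a difference of -0.30 ± 0.17 (adjusted p = 0.174, 95% interval -0.68 to 0.08), with both POG arrays lowest. By trended and robust eBayes Lamp1 passed as lower (adjusted p = 0.0241). Lamp2, which also serves chaperone-mediated autophagy, was at 0.11 ± 0.17 (adjusted p = 0.638, 95% interval -0.28 to 0.49). The tethers that bring vesicles to the lysosome were also without a call, 0 of 4 for HOPS and CORVET (limma, with 1 at an unadjusted p under 0.05) and 0 of 2 for GARP (0 at an unadjusted p under 0.05). Vps16, a core subunit of both lysosomal tethers, was at 0.41 ± 0.18 (adjusted p = 0.0836), Vps11 at -0.17, Vps33a at 0.09, Vps53 at 0.18 and Vps54 at -0.12. The lipid transfer proteins Vps13a and Vps13b were at 0.12 and 0.06.

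The promoters of members were searched for the letters recognised by the TFEB family (TFEB, TFE3 and MITF), transcription factors that drive many lysosomal genes. RefSeq promoter windows on the rat build GRCr8, from 250 bases before to 50 after the gene start, were matched for 69 of the 87 members. The 8 letters TCACGTGA, a palindrome and so the same on both strands, stood in the window of 9 of these members (13%), against 1.78% of the 6073 array genes with a window and 0.777% of all 33469 windows. Of the 9 genes 1 was higher in POG-treated cells, 0 were lower and 8 did not pass. Among all probe sets 26.7% were higher and 19.6% lower. The 6-letter core CACGTG, which lies within the longer motif, stood in 13 members (18.8%, against 9.37% of array genes), of which 2 were higher, 2 lower and 9 not past the threshold. A match describes the letters of the window and not a bound site. The stretches below set Snx2, the single gene with the 8 letters that rose, beside 4 that did not pass. Among those 4 are the V0 subunits whose differences were near 0. The 2 genes with the 6 letters that fell come last. Vps26c, which holds only the 6 letters and rose by 0.87, is not printed, nor is a further 8-letter match of Lamp1. Capitals mark the motif, and each stretch reads 5′ to 3′ along the gene.
Snx2 (chr18:48800566-48800595, plus strand): gccttgcgtgcTCACGTGAcaggtccgcga
Vps26a (chr20:30976881-30976910, minus strand): gtggcctacggTCACGTGAcgggcggcggg
Atp6v0d1 (chr19:50357283-50357312, minus strand): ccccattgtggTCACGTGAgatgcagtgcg
Atp6v0e1 (chr10:17007115-17007144, minus strand): tcgcgcgccggTCACGTGAgcctctgttga
Lamp1 (chr16:83075084-83075113, minus strand): cgcggcactgtTCACGTGAcaggcgctgcc
Snx18 (chr2:46991690-46991719, minus strand): cctcccacccacCACGTGgtcactcaagtt
Vps37b (chr12:38220909-38220938, plus strand): cagcgctggcgtCACGTGcccccccgcgag

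Among ESCRT genes, 2 had the largest falls of all 87 members. Chmp4c, an isoform of the filament-forming ESCRT-III protein CHMP4 that acts in the final cut between daughter cells, was at 10.56, 10.41 and 10.87 in DMSO and 8.30 and 7.90 in POG. It fell by 2.51 ± 0.21 on the log2 scale or 5.71-fold (adjusted p = 8.99e-06). Vps37b, a subunit of the cargo-binding complex ESCRT-I, was at 11.15, 10.74 and 10.94 in DMSO and 8.81 and 8.59 in POG, a difference of -2.24 ± 0.19 or 4.73-fold lower (adjusted p = 1.07e-05). For both genes the POG arrays lay far below all DMSO arrays, and the calls were kept under each alternative run. Their relatives did not pass, although the differences between relatives were not tested. Vps37a, which can take the same place in ESCRT-I, was at -0.08 ± 0.17 (95% interval -0.45 to 0.30), and Chmp4bl1, annotated as a Chmp4b-like gene, was at -0.32 ± 0.18 (95% interval -0.72 to 0.09). Vps36, the ubiquitin-binding subunit of ESCRT-II, rose by 0.54 ± 0.17 (adjusted p = 0.0264), from 10.53, 10.57 and 10.47 to 10.95 and 11.17. That call was lost after centring (adjusted p = 0.0511) and without POG replicate 1 or 2 or DMSO replicate 2 or 3 (adjusted p = 0.051, 0.165, 0.0539 and 0.0623). Vps28, of ESCRT-I, was at 0.43 ± 0.19 (adjusted p = 0.0874). The ATPases that take ESCRT-III apart were at -0.48 ± 0.21 for Vps4b (adjusted p = 0.0799, 0.0427 after centring, -0.76 with 0.0395 without POG replicate 2, and -0.20 with 0.516 without POG replicate 1) and 0.10 ± 0.21 for Vps4a, and Chmp1b, Chmp3, Chmp5 and Chmp7 lay between -0.19 and 0.05.

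**Figure D4:**
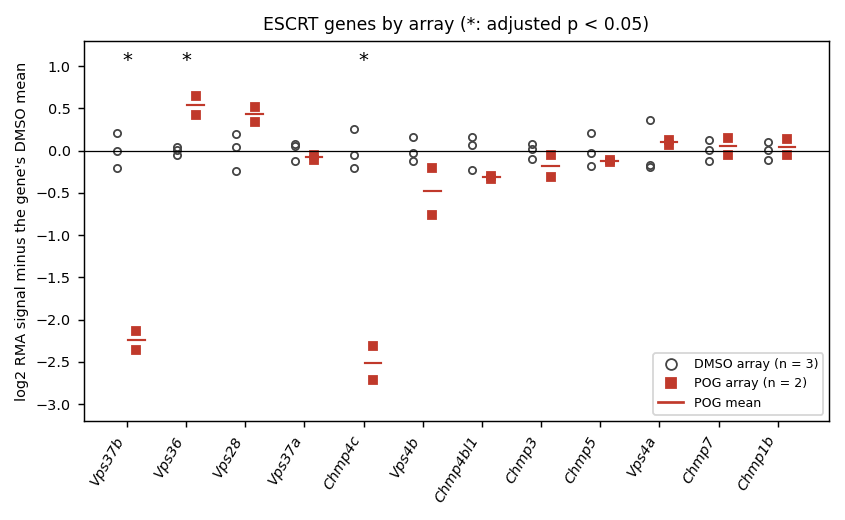
Signal of the 12 ESCRT genes on each array, as the log2 RMA signal minus the gene's DMSO mean (y axis), with ESCRT-I and II genes first and ESCRT-III and Vps4 genes after; open circles are the 3 DMSO arrays, red squares the 2 POG arrays, red lines the POG mean, and asterisks mark genes past the threshold. Vps37b and Chmp4c lie more than 2 log2 units below their DMSO means on both POG arrays, and the POG means of their relatives Vps37a and Chmp4bl1 at -0.08 and -0.32.

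Sorting nexins held 11 of the 28 calls, and the group as such was not tested. Of 18 measured, 8 rose and 3 fell, where 26.7% of all probe sets rose and 19.6% fell. The median of the nexins was 0.53, against 0.11 for all probe sets. Of the nexins, 6 rose after centring and 7 after quantile normalization, with 3 lower in each. Nexins with a BAR domain, which bends membrane into tubules, made up 10 of them (this division was made after the values were seen), and 6 of these rose and 2 fell. The measured nexins that coat retromer tubules, Snx1, Snx2 and Snx6, rose, but each call was lost without POG replicate 1 or 2. Snx5 had no named probe set and was not analysed here. Snx1 went from 9.43, 8.78 and 9.31 to 9.76 and 10.16 (0.79 ± 0.23, adjusted p = 0.0195), Snx2 went from 11.56, 11.55 and 11.65 to 12.31 and 12.21 (0.67 ± 0.16, adjusted p = 0.00846), and Snx6 went from 11.19, 11.38 and 11.83 to 12.18 and 12.41 (0.83 ± 0.22, adjusted p = 0.0114). On each of these the POG arrays lay above the DMSO arrays. Snx4 and its partner Snx7, which act in endosome recycling and autophagy, rose by 0.56 ± 0.18 and 0.72 ± 0.18 (adjusted p = 0.028 and 0.00863), while Snx30, the alternative partner of Snx4, fell by 1.18 ± 0.18 (adjusted p = 0.000572), from 8.75, 8.95 and 9.02 to 7.61 and 7.84. The nexins of endocytosis differed in direction. Snx18 fell by 1.32 ± 0.18 or 2.50-fold (adjusted p = 0.000254), from 12.21, 12.39 and 12.52 to 11.11 and 10.99, Snx33 rose by 0.69 ± 0.21 (adjusted p = 0.0231), and Snx9 was at -0.05 ± 0.16 (95% interval -0.41 to 0.32). Snx8 was at 0.28 ± 0.20.

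Of the nexins without a BAR domain 2 of 8 rose and 1 fell, against 26.7% and 19.6% of all probe sets. Snx24, a small nexin of little known function, rose most, from 9.12, 9.07 and 9.34 to 10.40 and 10.36 (1.203 ± 0.172, 2.30-fold, adjusted p = 0.000414). Snx10, which binds the V-ATPase and is needed in osteoclasts, fell from 12.89, 12.97 and 13.01 to 11.96 and 12.14 (-0.91 ± 0.17, adjusted p = 0.00193). The only measured osteoclast marker of 6 listed, Ctsk, was 0.57 higher (adjusted p = 0.0381). Snx3, which directs retromer to Wntless, rose by 0.51 ± 0.16 (adjusted p = 0.028), and Snx27, Snx29 and Snx17 were at 0.56, 0.64 and 0.40 without passing (adjusted p of 0.079 to 0.0843), Snx29 with a DMSO mean of 5.97 under the lower quartile. Snx18, Snx30, Snx10 and Snx24 kept their calls under each alternative that included them. The smaller rises did not: after centring Snx3 (adjusted p = 0.0611) and Snx4 (0.0536) did not pass, nor did Snx33 after quantile normalization (0.0584). Without POG replicate 2, the adjusted p was 0.0685 for Snx7, 0.0963 for Snx6, 0.166 for Snx1, 0.0527 for Snx33, 0.2 for Snx4 and 0.0994 for Snx3. Without POG replicate 1 it was 0.0576 for Snx2, 0.159 for Snx33 and 0.11 for Snx3. Without DMSO replicate 2 it was 0.0601 for Snx1, 0.0756 for Snx33, 0.0638 for Snx4 and 0.0642 for Snx3, and without DMSO replicate 3 it was 0.0611 for Snx33, 0.0669 for Snx4 and 0.0675 for Snx3.

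The trimer of Vps26, Vps29 and Vps35 recognises cargo for return from the endosome. Of its 4 measured genes 0 passed (limma, 0 at an unadjusted p under 0.05). With the retriever gene Vps26c, 5 of 5 differences were positive under each of the 3 scalings, against 5705 of all 10141 probe sets as deposited, and their median was 0.31 as deposited and 0.23 after centring. Vps35 was at 13.27, 13.34 and 13.29 in DMSO and 13.41 and 13.76 in POG (0.29 ± 0.18, adjusted p = 0.21), Vps26a at 0.36 ± 0.18 (adjusted p = 0.122), Vps26b at 0.31 ± 0.21 and Vps29 at 0.23 ± 0.19. Vps26c, which rose, belongs to retriever, a complex of similar build with other cargo. It was at 6.66, 7.58 and 7.58 in DMSO and 8.09 and 8.20 in POG (0.87 ± 0.27, adjusted p = 0.0257), where DMSO replicate 1 lay well below the other DMSO arrays. Without DMSO replicate 1 the difference was 0.56 (adjusted p = 0.0309). The adjusted p of Vps26c was 0.0953 without POG replicate 1, 0.138 without POG replicate 2 and 0.202 by the methods' t-test.

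**Figure D5:**
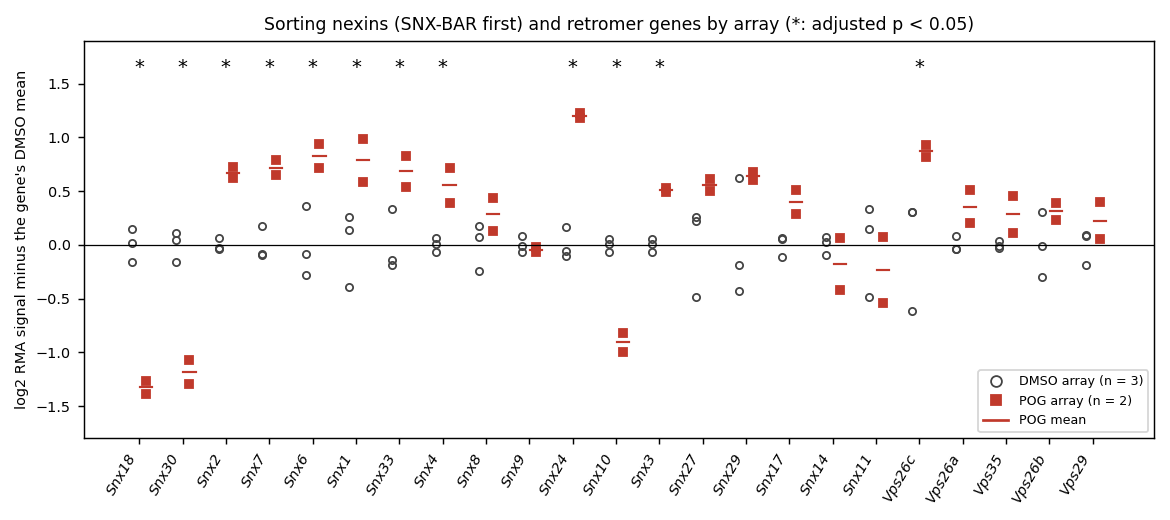
Signal of the 18 sorting nexins (BAR-domain nexins first) and the 5 retromer and retriever genes on each array, as the log2 RMA signal minus the gene's DMSO mean (y axis); open circles are the 3 DMSO arrays, red squares the 2 POG arrays, red lines the POG mean, and asterisks mark genes past the threshold. The POG means of Snx18, Snx30 and Snx10 lie 0.91 to 1.32 below the DMSO means, and the POG means of the 5 retromer and retriever genes all lie above 0.

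Other genes of these pathways, from a list of 96 of which 60 were measured, also went both ways. Of the 60, 12 were higher and 13 lower, where 26.7% of all probe sets were higher and 19.6% lower. The median of the 60 was 0.0017, against 0.11 for all probe sets. After centring, or after quantile normalization, 10 were higher and 17 lower. The falls of Sort1 and Plekhm1 were larger than that of any member. Sort1, sortilin, which carries enzymes to the lysosome and is a cargo of retromer, was at 12.71, 13.12 and 13.04 in DMSO and 8.51 and 8.70 in POG, a difference of -4.35 ± 0.19 (adjusted p = 1.63e-07). Plekhm1, an adaptor between Rab7, HOPS and ATG8 proteins, fell from 10.36, 10.52 and 10.48 to 7.5 and 7.53 (-2.94 ± 0.17, adjusted p = 6.92e-07). Of the ESCRT-0 genes, which gather ubiquitinated cargo ahead of the ESCRT members above, Stam (-1.10) and Hgs (-0.71) fell, and Stam2 was at 0.32 ± 0.18 (adjusted p = 0.163). The lysosomal chloride transporter Clcn7 (-0.96), its partner Ostm1 (-0.59), the mannose 6-phosphate receptor Igf2r (-0.85), the adaptor Tollip (-0.78) and the SNARE Ykt6 (-1.01) also fell. Rab9a, a GTPase of the route between endosome and Golgi, rose by 1.85 ± 0.17 (adjusted p = 2.31e-05), and Tbc1d5 (0.90), Washc3 (0.80) and Vta1 (0.49) rose. The mitophagy receptors Bnip3 (2.43, limma adjusted p = 5.45e-06) and Bnip3l (0.91, 0.00169) were higher, and Fundc1 (0.59, 0.0489) passed narrowly. Among regulators, Mitf (2.14), Tfe3 (0.71), Foxo3 (0.90), Tbc1d7 (1.05) and Mlst8 (0.76) rose, Mitf from a DMSO mean of 5.76 under the lower quartile, and Foxo1 (-1.34), Prkab2 (-1.09), Rheb (-0.55) and the chaperone partner Bag3 (-1.47) fell. Measured regulators without a call included Tsc1 (-0.51), Tsc2 (-0.23), Rragc (-0.17), Prkaa1 (0.15) and Stk11 (0.105). Mtor, Rptor, Rictor and Tfeb were listed but had no named probe set and were not analysed here.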

How the data were processed

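RNA (150 ng total) was hybridised to Affymetrix rat transcriptome arrays. The authors computed log2 signals by RMA with default settings and global scaling, and deposited them in a pair of tables that were identical (largest difference 0). The RMA version and the rule by which probe sets were kept are not given in the sources used here, and no detection calls were used, so low signals may be background (lower quartile 6.17). Global scaling assumes that most genes do not change. Symbols came from GEO's platform annotation by probe ID (7240 probe sets with 1 symbol, 2901 with none, 0 with several), and all 87 member symbols equalled current RefSeq names (GRCr8). The platform record names another array design than the study's methods, and the names rest on the match of probe IDs.

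POG arrays (2) were compared with DMSO arrays (3) by limma 3.58.1 in R 4.3.3 (lmFit and eBayes, two-sided, 3 residual degrees of freedom), on the log2 signals as deposited, p-values being adjusted by Benjamini-Hochberg across the 10141 probe sets and called under 0.05. Intervals are 95% intervals of this fit, and folds are ratios of signal. Tests were tried on simulated data first. The legend of the study's heatmap at passage 12 gives 3 replicates, whereas the POG group here has 2 arrays. Another POG array was not analysed here. The members and lists were chosen with earlier results of these data known. Named are all members past the threshold, up to 3 members of each functional group by smallest p, and a panel. The called genes of the list of other pathway genes are also named. The panel was Map1lc3a, Map1lc3b, Sqstm1, Atg5, Atg7, Becn1, Lamp1 and Lamp2, of which the study followed LC3, p62 and ATG7 as proteins. Further members are given to complete a group and were chosen after their values were seen. Alternatives were the second table, median centring, quantile normalization, brighter probe sets only (mean signal of at least 8.452), trended and robust eBayes, array weights, a replicate block, each array left out, and the study's t-test and thresholds (p under 0.05 and a fold over 1.5).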

Additional observations from a re-analysis of the deposited data

How the results depend on the processing

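All 28 called members kept their direction under each alternative, and 8 of them (Stx17, Atp6ap2, Vps37b, Chmp4c, Snx18, Snx24, Snx30 and Snx10) kept their call under each alternative that included them. Of the 30 uncalled members named by smallest p or by the panel, 26 kept their sign and 10 passed under at least 1 alternative. Further uncalled members, given to complete a group, were not followed gene by gene. The count over all probe sets was 4694, against 2894 among brighter probe sets only, where 5071 were tested, 2078 by the methods' t-test with adjusted p-values, and 2900 to 4347 with 1 array left out (2900 without POG replicate 2). Members called higher were 14, against 6 by the methods' t-test after adjustment, 7 by that test at the methods' thresholds (an alternative chosen after seeing the data) and 4 to 13 with 1 array left out, and members called lower were 14, against 7 to 16 with 1 array left out, 21 by trended and robust eBayes, 20 after centring, and 18 both among brighter probe sets and with array weights. The methods' t-test lost 14 of the 28 calls: Atg10, Atg16l1, Atg4c, Atp6v0b, Atp6v0c, Becn1, Gabarapl1, Snx1, Snx33, Snx4, Snx6, Snx7, Sqstm1 and Vps26c. Without a POG array, the fit takes the spread of the DMSO arrays for the one that remains. The members' median difference of 0.02 was -0.067 after centring, -0.091 after quantile normalization and -0.035 to 0.01 with 1 array left out, so it has no settled direction. Of these 30 members, Vps13b (0.06) was at -0.027 after centring and -0.013 after quantile normalization, and Vps33a (0.09) at -0.0057 after quantile normalization. Members outside the 30 also changed sign, among them Gabarap (0.08), which was negative after centring. There 2 of the 5 ATG8 genes were positive, against 3 as deposited. With 1 array left out Vps13b ran from -0.035 to 0.21, Vps33a from -0.073 to 0.26, Vps13a from -0.005 to 0.21 and Wipi2 from -0.50 to 0.08. The cause was not tested. Deviations of same-numbered arrays had correlations of 0.0042 and 0.0052, from 2 pairs. The 2 POG arrays deviate from their mean by equal and opposite amounts, so these values are not independent and cannot settle pairing. With the replicate number as a block (replicate block) 4193 probe sets, 11 higher and 12 lower members passed. DMSO replicate 3 has no POG array of its number, so the blocked differences equal those without it (Becn1 at -0.51 in both). With 2 POG arrays, the number of arrays limits the precision, and the other pathway genes were run only under the scaling alternatives.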
